A study of Homo sapiens with 6 samples.

Results

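The inflammatory cytokine and chemokine genes described here were 10 genes taken by symbol, namely CXCL1, CXCL2, CXCL3, CXCL8, IL6, IL1A, IL1B, IL11, LIF and CSF2, out of 58735 genes in the deposited tables. All 10 were found, and all 10 passed the filter on low counts. They were measured by RNA sequencing in MDA-MB-231, a human triple-negative breast cancer (TNBC) cell line of mesenchymal type, labelled as wild type and grown as bulk cultures. One group of 3 samples received vehicle and the other group of 3 samples received SCH, a boiled and freeze-dried water extract of the herb Salvia chinensis Benth, at 100 mg/l, both for 24 h. The study asked which transcripts SCH alters in these cells. SCH is a mixture of compounds dosed by the weight of raw herb, a single cell line was sequenced, and the culture medium is RPMI-1640 in the sample labels and DMEM in the methods of the study.

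The members belong to 4 kinds of secreted signal. CXCL1, CXCL2, CXCL3 and CXCL8 are chemokines that draw neutrophils through the receptors CXCR1 and CXCR2. IL1A and IL1B encode the ligands of the interleukin-1 receptor, which signals through MYD88 and IRAK kinases to NF-kB and AP-1. IL6, IL11 and LIF signal through a shared receptor chain, gp130, encoded by IL6ST, to JAK kinases and STAT3, while CSF2 encodes GM-CSF, a growth factor for granulocytes and macrophages. Mesenchymal breast cancer cells are known to secrete several of these proteins, and many of the transcripts are short-lived because of AU-rich elements in their 3′ untranslated regions.

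Summed over all genes, the vehicle samples held 20291379, 18714240 and 18334857 counts, against 16836369, 17979434 and 18414924 for SCH. The design text describes the 3 samples of a group as biological repeats. The members together took 619 ± 18.1 CPM (a count as its share of the library, in parts of 1e6, SD, n = 3) after vehicle and 1226 ± 63.3 (SD, n = 3) after SCH. The test was the quasi-likelihood test of edgeR on raw counts, and p-values were adjusted by the Benjamini-Hochberg method over all 14736 tested genes, with 0.05 as the threshold. SE stands for the standard error of a log2 fold change. The normalized CPM below also include TMM scaling. FPKM values also divide by gene length, here all annotated exonic bases of the gene, and are used to compare one gene with another. In bulk RNA, fewer cells that make a transcript cannot be told apart from less of it per cell.

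The labelled cell type was compared with its markers first. VIM, CD44, EGFR, AXL, CAV1 and MSN were all measured with at least 3007 counts in every sample, and ESR1, PGR and CDH1, the estrogen receptor, progesterone receptor and E-cadherin genes, had at most 6 counts. Of the 6 measured markers 5 were lower after SCH, CAV1 by a log2 fold change of -1.17, AXL of -0.84, VIM of -0.56, EGFR of -0.28 and MSN of -0.19, and CD44 was not called at 0.03. With library size only, MSN was not called (-0.083) and CD44 was (0.14). With SPARC, the 7 markers of the list summed to 910, 927 and 916 FPKM after vehicle and 630, 632 and 627 after SCH, and their part in the results for the cytokine genes was not tested. SPARC went against the list with at most 2 counts, and so did KRT19 at 53.2 FPKM, ERBB2 at 6.67 FPKM and EPCAM at 6.53 FPKM in the vehicle mean. After SCH, ERBB2 was raised (log2 fold change 0.29, edgeR adjusted p = 1.64e-04) and so was KRT19 (0.17, edgeR adjusted p = 0.0234). EPCAM was lowered (-0.52, edgeR adjusted p = 9.22e-05). Markers of cells that could bring cytokine transcripts of their own were close to 0. The 8 macrophage and monocyte markers summed to 48, 49 and 32 counts after vehicle and 43, 49 and 34 after SCH, with 6 of the 8 at 10 counts or fewer in every sample, CSF1R the most abundant by counts and CD14 by FPKM, and FCGR3A, AIF1 and TYROBP at 0. The 6 neutrophil markers summed to at most 4 counts in any sample, with S100A8, FCGR3B and ELANE at 0. The 4 endothelial markers summed to 21, 33 and 26 counts after vehicle and 16, 25 and 32 after SCH. They were led by PECAM1.

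Lists of 2 other cell types differed between the groups. The 7 lymphocyte markers summed to 40, 41 and 35 counts after vehicle and 5, 10 and 11 after SCH, mostly PTPRC except in the third SCH sample, with CD3D, CD2 and MS4A1 at 0 in every sample. PTPRC had 39, 37 and 34 counts after vehicle and 4, 9 and 3 after SCH (log2 fold change -2.75, edgeR adjusted p = 8.80e-07). The 5 fibroblast markers summed to 135, 109 and 104 counts after vehicle and 172, 188 and 171 after SCH, mostly from COL1A1 (log2 fold change 0.76, edgeR adjusted p = 4.26e-05), and DCN was at 0 throughout. The part of these markers in the member values was not tested. None of the lists of other cell types summed to more than 188 counts in a sample. Among the members, CXCL8 had between 3196 and 9562 counts, IL1B between 336 and 617 and IL6 between 312 and 428. IL1A had only 26 to 55.

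Of the 10 members, 7 were raised by SCH, none was lowered and 3 did not pass the threshold. Of all tested genes, 29.3% were raised, 29.4% were lowered and 58.7% were changed in either direction. The raised members were CXCL8, CXCL3, CXCL2, IL11, CSF2, IL1B and CXCL1, while IL1A, IL6 and LIF were not called. The median log2 fold change of the 10 was 0.77, against -0.0034 for all tested genes. In the same 7 members every SCH sample lay above every vehicle sample, as it did in 31.1% of all tested genes, and 62.4% of all tested genes had groups apart in one direction or the other. Only CXCL8 reached a log2 fold change of 1 with an adjusted p under 0.05, as did 3.89% of all tested genes in the upward direction. The plot of the members by sample shows the separation of the raised members and the overlap of the other 3.

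**Figure D1:**
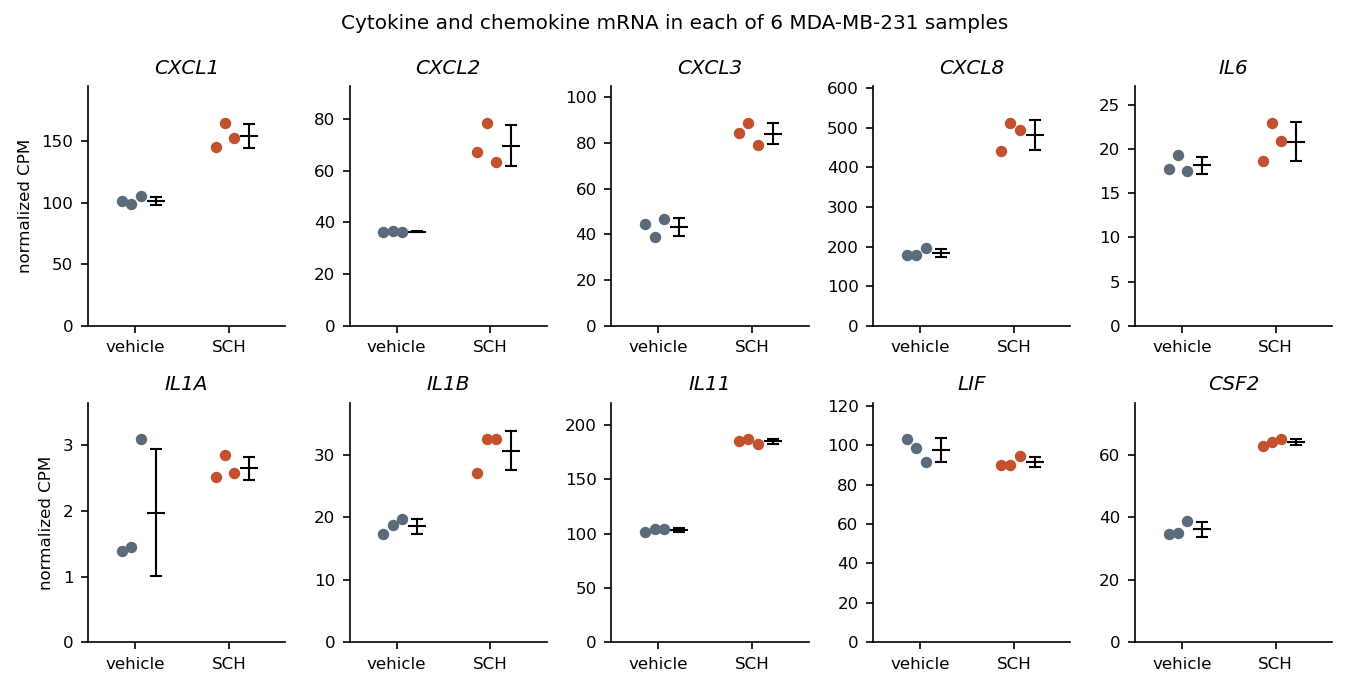
Normalized CPM (y axis, from 0, a scale of its own in each panel) of the 10 members in the 3 vehicle samples (grey) and the 3 SCH samples (red), with the mean ± SD of each group as a bar beside the points. In 7 panels all SCH points sit above all vehicle points, and in the panels of IL6, IL1A and LIF the groups overlap.

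CXCL8 encodes interleukin-8, a strong attractant of neutrophils. The gene (ENSG00000169429) lies on the plus strand of chromosome 4 from 73740506 to 73743716 on GRCh38. It had 179.6, 178 and 196 normalized CPM in the vehicle samples and 440.3, 513 and 495 in the SCH samples. The 2 groups were far apart, with no SCH sample near the vehicle range. The fold change was 2.62, or 1.39 on the log2 scale (SE 0.057, 95% interval 1.27 to 1.51, edgeR adjusted p = 2.13e-15). Among the 14736 tested genes, 1.61% had a larger rise.

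CXCL1, CXCL2 and CXCL3 are close copies of each other that signal mainly through CXCR2. CXCL1 (ENSG00000163739, chromosome 4 from 73869393 to 73871242, plus strand) had 101, 98.7 and 105 normalized CPM after vehicle and 145, 165 and 152 after SCH. The groups did not overlap, and the log2 fold change was 0.60 (SE 0.055, edgeR adjusted p = 2.45e-09), the smallest rise among the 7 raised members. CXCL2 (ENSG00000081041, chromosome 4 from 74097035 to 74099293, minus strand) had 36.2, 36.5 and 36.3 normalized CPM after vehicle and 67.1, 78.6 and 63.4 after SCH. The vehicle samples of CXCL2 were nearly level, and most of its spread was in the SCH group (SD 7.92 against 0.165, n = 3 each). Its log2 fold change was 0.94 (SE 0.072, edgeR adjusted p = 1.27e-10). CXCL3 (ENSG00000163734, chromosome 4 from 74036589 to 74038807, minus strand) had 44.6, 39.0 and 46.6 normalized CPM after vehicle and 84.2, 88.9 and 79.3 after SCH. It rose by 0.95 on the log2 scale (SE 0.067, edgeR adjusted p = 2.82e-11), which lies within 1 standard error of the value of CXCL2.

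The likeness of these copies bears on how far their counts can be told apart. Over the coding sequence, CXCL1 was identical to CXCL2 at 93.5% of aligned bases, CXCL1 to CXCL3 at 90.7% and CXCL2 to CXCL3 at 94.4%, while CXCL8 shared between 52.4% and 54.0% with each of the 3. Stretches of 50 bases were taken from the main annotated transcript of each gene and not from all its exons. That transcript holds 1097 of 1296 exonic bases in CXCL1, 1218 of 1500 in CXCL2 and 1075 of 2219 in CXCL3. Of these stretches, 5.73% in CXCL1, 9.24% in CXCL2 and 5.26% in CXCL3 occurred in another of these genes. Reads from such shared stretches could be counted for the wrong copy or dropped, so the separate values of CXCL1, CXCL2 and CXCL3 carry that uncertainty. No stretch of 50 bases from the main transcript of CXCL8 was found in another gene.

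The promoters are shown because the 4 chemokines share a motif there, and IL6 and IL11 are set beside them for contrast. The stretches run from position -145 to -41, with the RefSeq start of the gene as 0, on the strand of the gene, from RefSeq on GRCh38.p14. Capitals mark matches to GGNNTTTCC, an NF-kB motif, and to TGANTCA, an AP-1 motif.
CXCL1: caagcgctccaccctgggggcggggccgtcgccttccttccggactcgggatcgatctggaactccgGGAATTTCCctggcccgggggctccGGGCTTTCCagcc
CXCL2: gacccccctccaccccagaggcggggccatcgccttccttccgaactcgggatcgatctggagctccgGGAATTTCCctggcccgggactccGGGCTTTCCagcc
CXCL3: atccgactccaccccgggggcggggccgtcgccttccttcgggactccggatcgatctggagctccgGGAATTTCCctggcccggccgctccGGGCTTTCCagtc
CXCL8: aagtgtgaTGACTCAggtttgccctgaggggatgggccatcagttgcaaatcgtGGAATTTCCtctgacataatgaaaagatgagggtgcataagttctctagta
IL6: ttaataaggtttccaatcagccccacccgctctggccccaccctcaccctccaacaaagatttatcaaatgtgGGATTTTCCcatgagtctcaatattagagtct
IL11: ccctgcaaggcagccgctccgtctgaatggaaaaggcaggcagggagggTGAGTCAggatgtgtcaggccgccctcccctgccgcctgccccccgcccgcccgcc

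These stretches are chr4:73869248-73869352 on the plus strand for CXCL1, chr4:74099236-74099340 on the minus strand for CXCL2, chr4:74038730-74038834 on the minus strand for CXCL3, chr4:73740424-73740528 on the plus strand for CXCL8, chr7:22727055-22727159 on the plus strand for IL6 and chr19:55370504-55370608 on the minus strand for IL11. Both strands of the 300 bases around each start (250 before and 50 after) were searched, and 9 of the 10 members had a promoter entry. The exact letters GGAATTTCC were found in CXCL1 at -78, in CXCL2 at -77, in CXCL3 at -78 and in CXCL8 at -91, and in no other member with an entry. They occurred in 0.472% of 27305 promoters of that length. The looser GGNNTTTCC, which includes those letters, was also found at -53 in CXCL1, CXCL2 and CXCL3 and at -72 in IL6, and occurred in 6.26% of promoters. TGANTCA was found in CXCL8 at -137, in IL11 at -96 and in both entries of IL1A, and in 7.76% of promoters. TTGCNNAA, a C/EBP motif, was found in CXCL2 at -188, in IL6 at -155 and in IL1B at -215, and in 10.6% of promoters. None of these motifs was in the window of CSF2, and binding was not measured here. The printed stretches of CXCL1, CXCL2 and CXCL3 are much alike, so the motif matches of these copies are not independent of each other.

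The 4 chemokine genes lie in one cluster on chromosome 4. Between the start of CXCL8 and the end of CXCL2, a span of 359 kb, the annotation lists 16 genes, 9 of them protein coding, and 6 of these were tested. PF4, which encodes platelet factor 4, had 73 counts over the vehicle samples and 106 over the SCH samples (log2 fold change 0.54, edgeR adjusted p = 0.0796). Its groups did not overlap in normalized CPM, and it passed the threshold with library size only (0.65, edgeR adjusted p = 0.0370), without SCH replicate 3 (0.68, edgeR adjusted p = 0.0493) and with limma on log2(FPKM + 1) and log2(FPKM + 0.1) (adjusted p = 0.0170 and 0.0167). CXCL5, another ligand of CXCR2, had 49 counts over the vehicle samples and 38 over the SCH samples (log2 fold change -0.36, edgeR adjusted p = 0.431). CXCL6, PF4V1 and PPBP had at most 4 counts over the 3 samples of a group. In MDA-MB-231 cells the transcripts of the cluster were therefore almost all from the 4 members, as the plot along the cluster shows.

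**Figure D2:**
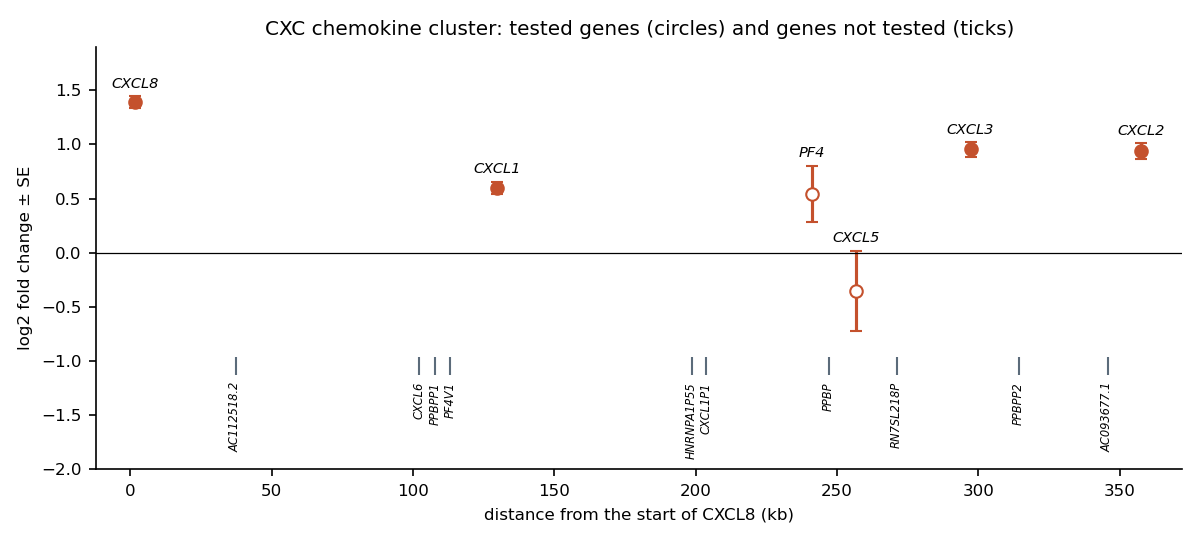
Log2 fold change ± standard error (y axis) of the tested genes of the chemokine cluster against the distance of the gene from the start of CXCL8 in kb (x axis), with filled circles for an adjusted p under 0.05, open circles for the others, and ticks at the foot for genes that were not tested. The 4 members lie at 0.60 or above, while PF4 and CXCL5 have long error bars and did not pass the threshold.

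The interleukin-1 pair differed in level and in precision. IL1B (ENSG00000125538, chromosome 2 from 112829751 to 112836903, minus strand), whose product is secreted after cleavage by caspase-1, had 17.3, 18.7 and 19.7 normalized CPM after vehicle and 27.0, 32.5 and 32.4 after SCH. The lowest SCH sample stood above the highest vehicle sample, and IL1B rose by 0.72 on the log2 scale (SE 0.087, edgeR adjusted p = 1.65e-07). IL1A (ENSG00000115008, chromosome 2 from 112773915 to 112784590, minus strand), whose product is active without that cleavage, had 27, 26 and 55 counts after vehicle and 44, 53 and 49 after SCH. The third vehicle sample was above all the SCH samples in counts and in normalized CPM (3.09 against 2.52 to 2.85), while the other vehicle samples were below them all. The log2 fold change of IL1A was 0.43 (SE 0.26, 95% interval -0.11 to 0.98, edgeR adjusted p = 0.165). Without that one vehicle sample it was 0.90 (edgeR adjusted p = 0.00546), so the call for IL1A rests on a single sample at a depth of 26 to 55 counts.

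Among the gp130 cytokines, IL11 rose and the other two were not called. IL11 (ENSG00000095752, chromosome 19 from 55364389 to 55370463, minus strand), known in breast cancer for its part in bone metastasis, had 102, 104 and 105 normalized CPM after vehicle and 185, 187 and 182 after SCH. Both groups were tight, and the log2 fold change was 0.83 (SE 0.049, edgeR adjusted p = 1.21e-12). IL6 (ENSG00000136244, chromosome 7 from 22725884 to 22732002, plus strand), which drives the acute-phase response, had 17.7, 19.3 and 17.5 normalized CPM after vehicle and 18.6, 23.0 and 20.9 after SCH. The lowest SCH sample of IL6 was under the highest vehicle sample, and the log2 fold change was 0.20 (SE 0.090, 95% interval 0.012 to 0.39, edgeR adjusted p = 0.0636). It was called with scaling by library size alone (0.30, adjusted p = 0.00624), without the second vehicle sample (0.25, adjusted p = 0.0432) and without the first SCH sample (0.28, adjusted p = 0.0152). Of the exonic bases of IL6, 20.7% overlap the annotated genes AC073072.1 and STEAP1B, so some of its reads may be counted elsewhere.

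LIF (ENSG00000128342, chromosome 22 from 30240447 to 30246851, minus strand), the leukemia inhibitory factor gene, had 103, 98.5 and 91.3 normalized CPM after vehicle and 90.1, 89.9 and 94.3 after SCH. One SCH sample lay inside the vehicle range and the other two just under it. The log2 fold change of LIF was -0.095 (SE 0.057, 95% interval -0.21 to 0.022, edgeR adjusted p = 0.156), and with scaling by library size alone it was 0.0083 (adjusted p = 0.908). Without the third vehicle sample it was -0.14 and passed the threshold (edgeR adjusted p = 0.0223). The antisense gene LIF-AS1 and AC004264.1 overlap 6.73% of the exonic bases of LIF. CSF2 (ENSG00000164400, chromosome 5 from 132073790 to 132076170, plus strand) had 34.6, 35.0 and 38.9 normalized CPM after vehicle and 62.9, 64.2 and 65.0 after SCH. The SCH samples of CSF2 were close together and well above the vehicle samples, with a log2 fold change of 0.82 (SE 0.064, edgeR adjusted p = 1.58e-10).

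**Figure D3:**
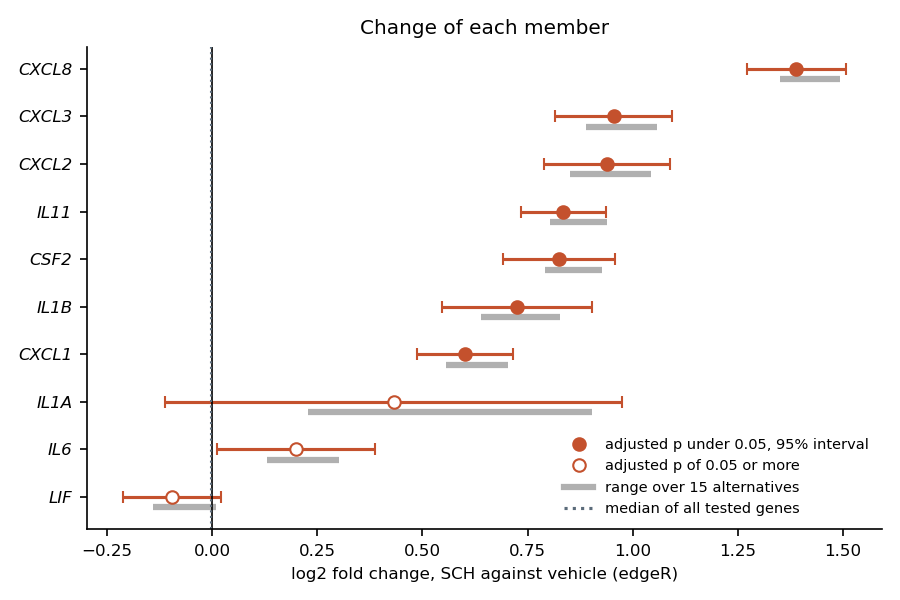
Log2 fold change of each member, SCH against vehicle (x axis), with its 95% interval, a filled circle for an adjusted p under 0.05, a grey bar for the range over 15 alternatives in processing, and a dotted line at the median of all tested genes. CXCL8 stands apart at 1.39, CXCL3, CXCL2, IL11, CSF2, IL1B and CXCL1 lie between 0.60 and 0.95, and IL1A has the widest interval.

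Per gene length, the levels of the members spanned a wide range. In the vehicle samples CXCL8 (78.4 ± 4.11 FPKM, SD, n = 3) and CXCL1 (75.8 ± 2.30 FPKM) were the most abundant, and their sample ranges overlapped. CSF2 came next at 44.4 ± 2.88 FPKM, then IL11 at 37.5 ± 0.624 FPKM. LIF at 23.8 ± 1.46 FPKM and CXCL2 at 23.4 ± 0.118 FPKM overlapped each other, and CXCL3 followed at 18.9 ± 1.68 FPKM. IL6 stood at 8.49 ± 0.453 FPKM, IL1B at 5.80 ± 0.366 FPKM and IL1A at 0.898 ± 0.440 FPKM. Apart from those 2 overlapping pairs, no neighbours in the order had overlapping ranges. Both the order and the gaps depend on the gene length used. CXCL3 was divided by 2219 exonic bases and IL1B by 3096, while their main annotated transcripts hold 1075 and 1631. For LIF both lengths are 3969. The order was not computed with transcript lengths.

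After SCH the order in FPKM, with the same gene lengths, differed only in the place of LIF, which stood below CXCL2 and CXCL3. CXCL8 reached 206 ± 15.7 FPKM (SD, n = 3) and stood clear of CXCL1 at 115 ± 7.42 FPKM. CSF2 (79.0 ± 1.02 FPKM) and IL11 (67.1 ± 1.06 FPKM) came next, as after vehicle. CXCL2 (45.1 ± 5.15 FPKM), which had overlapped LIF after vehicle, and CXCL3 (36.8 ± 2.16 FPKM) were both clear of LIF, which had 22.4 ± 0.541 FPKM. IL6 (9.77 ± 1.002 FPKM) and IL1B (9.61 ± 0.959 FPKM) now overlapped, and IL1A remained lowest at 1.21 ± 0.0782 FPKM. The plot of levels shows these shifts on a log axis.

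**Figure D4:**
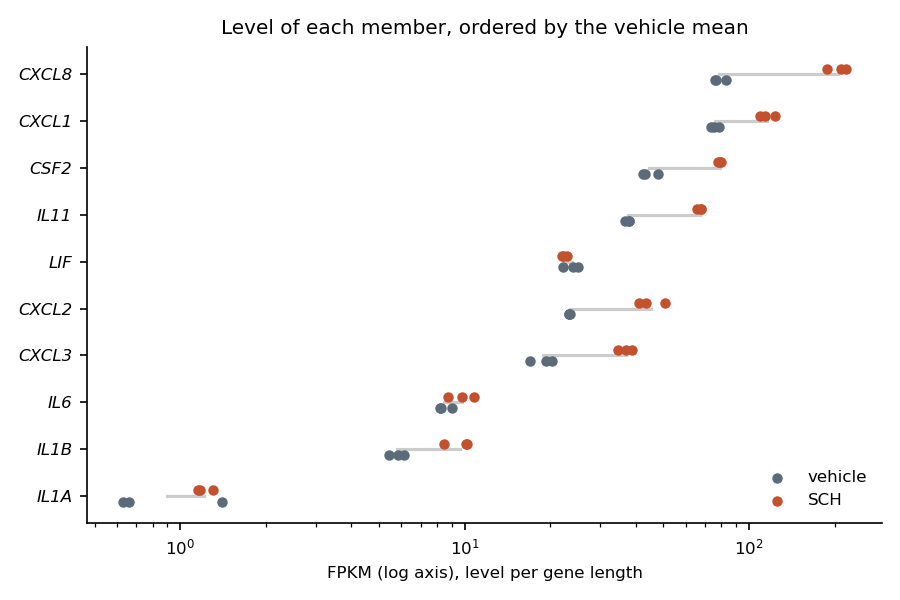
FPKM of each member in each sample (x axis, log scale), ordered by the vehicle mean, with vehicle samples in grey, SCH samples in red and a grey line between the group means. CXCL8 and CXCL1 overlap in the vehicle samples and are apart in the SCH samples, and CXCL2 and CXCL3 move past LIF. The places of the genes relative to each other depend on the gene length used, here all annotated exonic bases.

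The make-up of the set was also compared within samples, as ratios of FPKM in the same sample. These were 10 quantities, and with 3 samples against 3 an exact two-sided permutation test cannot give a p below 0.1 (a p of 0.1 became 0.125 after Benjamini-Hochberg adjustment over the 10). The summed FPKM of the members was 317 ± 9.73 after vehicle and 593 ± 29.8 after SCH (SD, n = 3 each), 1.87 times as high, and the 4 chemokines held 61.9% ± 0.628 of it after vehicle and 68.1% ± 1.17 after SCH. The ratio of CXCL8 to CXCL1 went from 1.03 ± 0.0258 to 1.79 ± 0.0625. The ratio of CXCL2 to CXCL1 was 0.309 ± 0.0107 after vehicle and 0.391 ± 0.0272 after SCH, and that of CXCL3 to CXCL1 was 0.249 ± 0.0157 and 0.319 ± 0.018. IL11 stood at 1.58 ± 0.120 times LIF after vehicle and 3.004 ± 0.118 times LIF after SCH, and at 4.42 ± 0.210 and 6.92 ± 0.714 times IL6. In all of these the 2 groups did not overlap and the exact permutation p was the smallest possible, 0.1. The ratio of CXCL3 to CXCL2 was 0.807 ± 0.0756 after vehicle and 0.819 ± 0.0474 after SCH (exact permutation p = 0.8, 0.889 after adjustment), and that of IL1B to IL1A was 7.27 ± 2.52 and 7.94 ± 0.654 (exact permutation p = 0.9). The size of a ratio of 2 genes depends on the gene lengths used, and its relative change between the groups does not. In mean counts CXCL3 was above CXCL2, at 799 against 669 after vehicle and 1544 against 1280 after SCH.

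The 3′ untranslated regions were searched because AU-rich elements there govern the decay of many cytokine transcripts. The element TTATTTATT, on the transcribed strand, was found in 8 of the 10 members and in 7.23% of 19670 protein-coding genes. A gene with no annotated 3′ untranslated region was counted there as lacking the element. Among the members TTATTTATT occurred 6 times in IL11, 5 times in CXCL2, 3 times each in CXCL1 and CSF2, 2 times each in IL1B and LIF, and 1 time each in CXCL3 and CXCL8. IL6 and IL1A held none, though each held the shorter ATTTA (6 times in IL6 and 5 times in IL1A). Since longer regions hold more matches by length alone, the last 300 bases were also compared, where 6 of the 10 members and 2.06% of 14632 genes held it. All 7 raised members carried the element, and so did LIF, which was not called.

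The genes that act on or beside the members were described from lists. Of the 12 receptor genes of the members, 7 were tested and all 7 were raised (background 29.3%), with a median log2 fold change of 0.62. IL6ST, the gp130 chain used by IL6, IL11 and LIF, had the highest level, at 31.8 FPKM after vehicle and 40.8 FPKM after SCH, and rose by 0.35 on the log2 scale (SE 0.060, edgeR adjusted p = 2.18e-05). The IL11 receptor gene IL11RA rose the most of the list, from 2.80 ± 0.371 to 7.23 ± 0.323 normalized CPM (SD, n = 3), a log2 fold change of 1.36 (SE 0.16, edgeR adjusted p = 9.74e-08), although 17.7% of its exonic bases overlap other genes, among them CCL27 and GALT. IL1R1, the signalling receptor of both interleukin-1 forms, rose by 0.99, LIFR by 0.65, IL6R by 0.62, IL1RAP by 0.49 and CSF2RA by 0.28. Of the 7 calls, that of CSF2RA (edgeR adjusted p = 0.0217) was lost without vehicle replicate 3 (0.23, edgeR adjusted p = 0.0741), without SCH replicate 2 (0.21, edgeR adjusted p = 0.129) and with DESeq2 (0.30, adjusted p = 0.0671). The chemokine receptors were not detectable beyond single counts. CXCR1 and ACKR1 had 0 counts in every sample, which allows up to 3 counts per library, and CXCR2 had at most 1. The decoy receptor gene IL1R2 had at most 3 counts and CSF2RB, the signalling chain of the GM-CSF receptor, at most 5.

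Of 22 genes of the interleukin-1 family, its processing and its signal relay, 14 were tested, 9 of which were raised (64.3%, against 29.3% of all tested genes) and 2 lowered (median 0.36). IRAK2, a kinase of the receptor complex, rose by 0.90 (SE 0.066, edgeR adjusted p = 5.22e-11), the inflammatory caspase gene CASP4 by 0.76, the adaptor gene MYD88 by 0.69 and the cytokine gene IL18 by 0.56. IRAK1, the most abundant gene of the list after vehicle, fell from 123 to 87.8 FPKM (log2 fold change -0.50, edgeR adjusted p = 5.02e-09). CASP1, whose product cleaves interleukin-1 beta, had a log2 fold change of 0.03 and was not called. The antagonist gene IL1RN had at most 3 counts.

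Of 25 other CXC and CC chemokine genes only 9 had enough counts to be tested, and 12 had at most 3 counts in every sample. Of the 9, 3 were raised (33.3%, near the 29.3% of all tested genes) and 1 was lowered, with a median of -0.19. CCL20, which draws CCR6-bearing cells, had 74, 62 and 77 counts after vehicle and 239, 290 and 314 after SCH, a log2 fold change of 1.98 (SE 0.13, edgeR adjusted p = 6.01e-12). CXCL16 rose by 1.39 and CCL26 by 0.83. The monocyte attractant gene CCL2 had 34, 23 and 37 counts after vehicle and 10, 14 and 24 after SCH. In raw counts the 2 groups of CCL2 overlapped, in normalized CPM they did not, and the log2 fold change was -0.96 (edgeR adjusted p = 0.0127). The call for CCL2 was lost without the third vehicle sample (-0.80, adjusted p = 0.0686), without the first SCH sample (-0.75, adjusted p = 0.0721) and with DESeq2 (-0.96, adjusted p = 0.0684).

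Of 30 other cytokine genes 17 were tested, 9 of them raised (52.9%, against 29.3% of all tested genes) and 2 lowered (median 0.32). IL24, a cytokine of the IL-10 family, had 114, 121 and 110 counts after vehicle and 418, 465 and 469 after SCH (log2 fold change 1.97, SE 0.098, edgeR adjusted p = 7.07e-14). TNFSF9, the 4-1BB ligand gene, rose by 1.72 and IL23A by 1.55. TNFSF15 fell by 1.58 on the log2 scale. CLCF1, another gp130 ligand, had the highest FPKM of the list over all 6 samples and rose by 0.20, although CSF1 was higher after vehicle (22.5 against 18.4 FPKM) and TNFSF9 after SCH (22.9 against 21.3 FPKM). TNF itself had between 3 and 10 counts per sample and was not tested.

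In the list of gp130 and JAK-STAT response genes, all 14 were tested, 8 were raised (57.1%, against 29.3% of all tested genes) and 2 lowered (median 0.35). SOCS1, an inhibitor of JAK kinases, had 51, 48 and 32 counts after vehicle and 125, 125 and 152 after SCH, with a log2 fold change of 1.62 (SE 0.17, edgeR adjusted p = 2.54e-08). SOCS2 fell by 0.76 and SOCS3, the usual feedback inhibitor of gp130 signalling, fell by 0.28, both on the log2 scale. BCL3 rose by 0.58, TYK2 by 0.57, JAK1 by 0.53 and STAT3 by 0.41. PTPN11, the most abundant of the list, was not called at 0.02, a value that turned to -0.0097 with upper quartile scaling and passed the threshold with library size only (0.13, edgeR adjusted p = 0.0212).

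Transcription factors known to act on cytokine promoters formed a list of 18, all tested, 12 raised (66.7%, against 29.3% of all tested genes) and 2 lowered (median 0.57). The 4 with the largest changes were all immediate early genes. EGR1 rose from 30.8 ± 1.69 to 117 ± 15.9 normalized CPM (SD, n = 3), a log2 fold change of 1.92 (SE 0.080, edgeR adjusted p = 2.96e-15), and FOS rose by 1.74, JUNB by 1.70 and FOSB by 1.63. FOSL1, the most abundant factor of the list, fell from 189.8 to 125 FPKM, or by 0.61 on the log2 scale (edgeR adjusted p = 6.68e-11). Of the 5 NF-kB subunits, NFKB2 rose by 1.47, RELB by 1.36, REL by 0.42 and RELA by 0.29, all past the threshold, while NFKB1 had a log2 fold change of 0.01 and was not called. The value of REL is uncertain, since 43.3% of its exonic bases overlap AC010733.2, and 14.2% of the exonic bases of JUNB overlap HOOK2. Among 8 inhibitors of NF-kB, 7 were raised (87.5%, against the same 29.3%) and none lowered (median 0.40). NFKBIE rose by 1.07, CYLD by 0.73, TNFAIP3 (which encodes A20) by 0.50, TNIP2 by 0.41 and the abundant TNIP1 by 0.16.

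Of 16 factors that act on AU-rich transcripts, 4 were raised, 5 lowered and 7 not called, with a median of 0.015. The share raised, 25.0%, was near the 29.3% of all tested genes, so the count says nothing particular of these factors. ZFP36, which encodes the decay factor tristetraprolin, rose from 19.0 ± 0.899 to 44.1 ± 1.23 normalized CPM (SD, n = 3), a log2 fold change of 1.22 (SE 0.072, edgeR adjusted p = 1.47e-12). HNRNPD, which encodes AUF1, had -0.80 (edgeR adjusted p = 7.46e-12). ARID5A, which stabilizes IL6 mRNA, rose by 0.79 and ZC3H12C by 0.55, and KHSRP, the most abundant of the list, fell by 0.28 on the log2 scale.

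Of 20 genes for enzymes and adhesion molecules known to respond to NF-kB or interleukin-1, 16 were tested, 10 were raised (62.5%, against 29.3% of all tested genes) and 3 lowered (median 0.62). The collagenase gene MMP1 had 969, 906 and 862 counts after vehicle and 3369, 3738 and 3730 after SCH, a log2 fold change of 1.99 (SE 0.053, edgeR adjusted p = 1.38e-18). BIRC3 rose by 1.12, ICAM1 by 0.94 and TNFAIP2 by 0.91, with 23.6% of the exonic bases of ICAM1 shared with other genes. SAA1, an acute-phase gene and the most abundant of the list after vehicle, fell from 126 to 87.7 FPKM (log2 fold change -0.53, edgeR adjusted p = 7.66e-06). The plot of the lists places the members beside these groups.

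**Figure D5:**
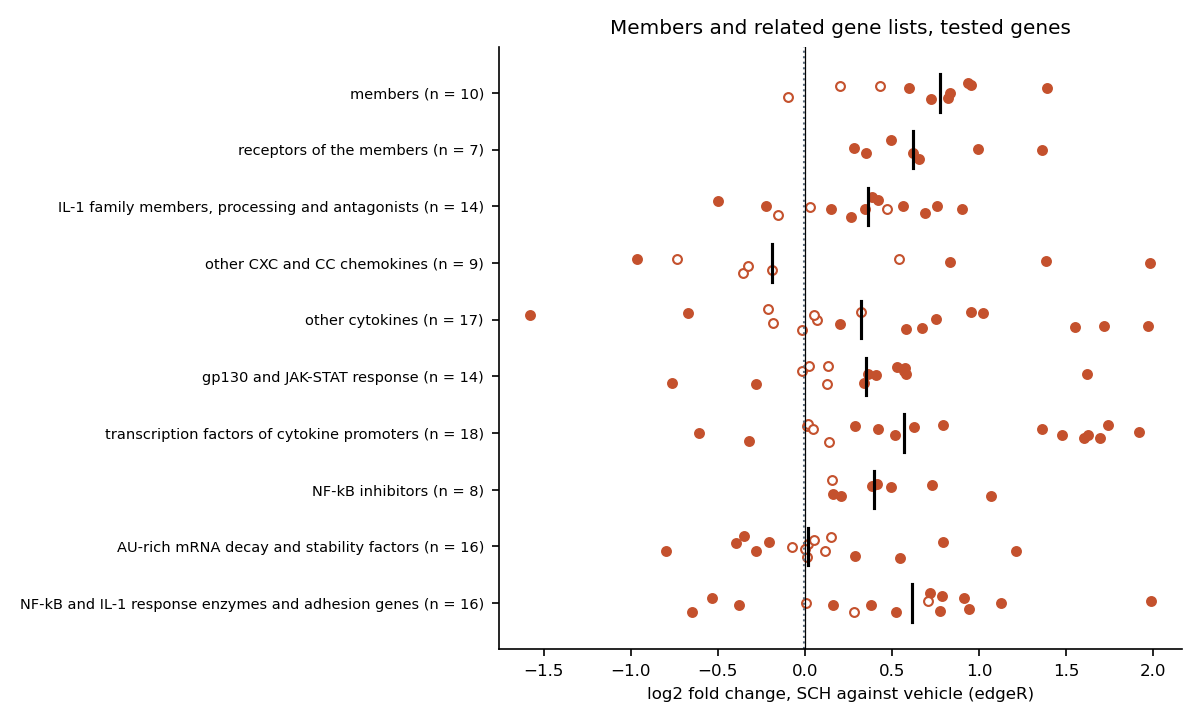
Log2 fold change, SCH against vehicle (x axis), of the tested genes of the member set and of 9 related lists (rows, with the number tested), with filled circles for an adjusted p under 0.05, open circles for the others, and a black bar at the median of each list. The medians run from -0.19 for other chemokines to 0.77 for the members, and the dotted line marks the median of all tested genes.

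For 9 of the members, the genes whose centred log2 CPM over the 6 samples lay nearest were found among 10714 genes of sufficient depth (100 or more counts on average). Nearest to CXCL8 were KLHL24 (Euclidean distance 0.144 in log2 units), VWA1 and GCH1. CXCL1 lay nearest to IFI44 (0.0497), DENND4C and RNF14, CXCL2 to ATP10D (0.0952), EPB41L5 and SOS2, and CXCL3 to RNFT1 (0.101), KLHL7 and PHTF1. IL1B lay nearest to AOC2 (0.117), ZNF585A and TTC21B, and CSF2 to CCDC186 (0.0888), PARP14 and SOD2. The profiles of the members that were not called lay nearest to ARTN (0.0854), STAT5B and SMAP1 for IL6, and to EIF2B4 (0.0387), UXT and MT-ND6 for LIF. For IL1A, whose own mean count was below that limit, the nearest were FOXRED2 (0.446), PRICKLE2 and KPNA5, and at its depth the distance is no measure of likeness.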

How the data were processed

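RNA from 3 vehicle and 3 SCH samples was sequenced on an Illumina HiSeq instrument from poly-T purified mRNA. The authors deposited raw counts per gene, with no normalization, and FPKM values, which were proportional within a sample to the count divided by gene length. The submitters' processing notes name CASAVA 1.8, HISAT2 2.0.5, featureCounts 1.5.0-p3, DESeq2 1.20.0 and GRCh38, and the strand setting is not given in the sources used here. All gene identifiers are in GENCODE release 29, which gave the exons and 3′ untranslated regions. RefSeq gave the promoters.

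The counts were tested with edgeR 4.0.16 under R 4.3.3 (TMM, filterByExpr, quasi-likelihood test, no covariates, Benjamini-Hochberg adjustment, threshold 0.05), after a test on simulated data. Standard errors came from dividing the log2 fold change, without its sign, by the root of F. The common coefficient of biological variation was 5.17%. The chi-square per degree of freedom between replicates ran from 2.12 to 5.75, so none was a copy of another. Python 3.11.15 and scipy 1.17.1 made the tables and figures, and coding sequences were aligned with biopython 1.88.

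The members and lists were chosen with earlier results of these data known. Named from each list were the 4 changed genes with the largest absolute log2 fold change, provided that the mean count reached 20 and the 2 groups were apart, and the gene with the highest FPKM. JAK1, STAT3, NFKB1, NFKB2, RELA, RELB, REL, CSF1, CASP1, IL1RN, TNF, SOCS3, the other receptors and the neighbours in the chemokine cluster were named outside that rule, after their values were seen. The genes with profiles nearest to IL11 are not reported here. Where a symbol had 2 identifiers (SOD2), the one with the most counts was used. The alternatives were RLE, library size only and upper quartile scaling, testing every gene with a count, a minimum of 10 counts in each sample, DESeq2 1.42.0, limma 3.58.1 on log2(FPKM + 1) and log2(FPKM + 0.1), blocking on the replicate number, leaving out one replicate at a time and a limit of 1 on the absolute log2 fold change.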

Additional observations from a re-analysis of the deposited data

How the results depend on the processing

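Over 15 alternatives (14 for TNFSF15, which the minimum of 10 counts in every sample left out), neither the direction nor the call of 7 of the 10 members and 42 of the 44 list genes named by the rule changed. The exceptions were IL6, IL1A, LIF, CCL2 and PTPN11. Of the list genes named outside the rule, CSF2RA, PF4 and STAT5B changed call, as did the cell-type markers CD44 and MSN. NFKB1 and CASP1, neither called, changed sign. STAT5B, named only for its profile near that of IL6, was not called in the main test (0.13, edgeR adjusted p = 0.116). It was called with library size only (0.23, edgeR adjusted p = 0.00635) and without SCH replicate 1 (0.19, edgeR adjusted p = 0.0390). With a limit of 1 on the absolute log2 fold change, 1292 genes were changed (573 raised, 719 lowered) and 1 member was. With library size only, IL6 was at 0.30, LIF at 0.0083 and PTPN11 at 0.13 (IL6 and PTPN11 were then called), and 62.6% of changed genes were raised in place of 49.9%. Upper quartile scaling put PTPN11 at -0.0097. The cause of these shifts was not tested. Leaving out each replicate in turn, between 7 and 9 members were changed, IL6 ran from 0.13 to 0.28, IL1A from 0.23 to 0.90, LIF from -0.14 to -0.049 and CCL2 from -1.34 to -0.75. Among the receptors 6 to 7 genes were then changed, and among the IL-1 family genes 9 to 11. Some called values shrank on the log2(FPKM + 1) scale, which understates low genes: TNFSF15 to -0.24, CXCL16 to 0.60, FOSB to 0.90, IL11RA to 0.70, IL1R1 to 0.61, IL6R to 0.38, IL23A to 0.97, SOCS2 to -0.51 and CCL2 to -0.36. TNFSF15 was at -0.998 with 0.1 as the pseudocount. Library size only put CLCF1 at 0.30, TNIP1 at 0.27 and KHSRP at -0.18.

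The replicate numbers did not pair the samples. Deviations of same-numbered samples correlated at 0.046, -0.022 and 0.022 across genes. With the replicate number as a block, 8705 genes were changed in place of 8650, and no call of a member differed. With at most 55 counts in a sample, IL1A and CCL2 had standard errors of 0.26 and 0.32.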
